A study of Mus musculus with 4 samples.

Results

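Keratins and small proline-rich proteins were followed in fetal livers as 66 genes of the 22911 genes named on the array, 52 keratins and 14 small proline-rich protein (Sprr) genes. A gene was a member when its symbol was Krt followed by a number, or began with Sprr. Krt7 and Krt19 were left out, as were the keratin-associated proteins. Each gene was represented by the probe with the highest mean log2 intensity of its 77 probes in all, and 3 further symbols of the reference, Sprr2a1, Sprr2a3 and Sprr2c-ps, had no probe matched. RNA was measured on 4 single-colour arrays of mouse fetal liver, 2 from fetuses of control diet (CD)-fed dams and 2 from fetuses of high-fat diet (HFD)-fed dams. The dams were C57BL/6J and received 4.3% of kcal as fat in the CD and 60% in the HFD, during gestation only. All samples carry the label female, no genetic change or other treatment is named, and the livers were taken in mid to late gestation. The comparison asks which of these genes differ in the fetal liver with the maternal diet. The series' design text names the replicates as biological, but neither the labels nor the study's methods give the number of fetuses or dams behind an array, so that p-values measure the spread between these arrays.

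Keratins are the intermediate filament proteins of epithelial cells, and a filament is built from pairs of a type I and a type II keratin. Hepatocytes are known for a single main pair, Krt8 and Krt18, whereas stratified epithelia such as the epidermis use Krt5 with Krt14 in the basal layer and Krt1 with Krt10 above it, and hair, nail, cornea and injured skin have keratins of their own. Small proline-rich proteins are cross-linked by transglutaminases into the cornified envelope beneath the membrane of squamous cells, and several are also induced in other stressed or hormone-stimulated epithelia.

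A spot's brightness follows the amount of its transcript, and the level used here is the log2 intensity of a probe minus the 75th percentile of its array. Levels of different probes cannot be set against each other as amounts of transcript, so each gene is compared with itself across arrays. Between 65.4% and 70.0% of the spots were well above background on an array, by the flag of the image analysis. All 9 markers of hepatoblasts and hepatocytes and all 7 of erythroid cells, the main cells of the fetal liver, were well above background on every array. This flag alone cannot identify the tissue. It held on every array for 72.4% of all genes named on the array and for 10 of 11 markers of epidermis and amnion. Over all probes tested, the log2 differences between replicates 1 and 2 had an SD of 0.60 in the CD group and 0.37 in the HFD group. Those across the groups had SDs from 0.44 to 0.54, so that the CD replicates were farther apart than any CD and HFD pair. The cutoffs used here were an unadjusted p under 0.05 and at least 2-fold. Of 14 trophoblast markers tested, 6 were past them and lower with HFD, beside 0.583% of all genes tested. A summed level is the log2 of the sum over the linear levels of a list, in which the brightest probes weigh most. It is compared across arrays only, and a probe's share of it is not a share of transcripts. For the trophoblast list it was 6.05 and 6.18 with CD against 5.58 and 5.67 with HFD. Gcm1, with levels of 5.65 and 4.28 with CD and 5.43 and 5.60 with HFD, made up most of that sum on CD replicate 1 and both HFD arrays. On CD replicate 2 the largest term was Tpbpa, a marker past the cutoffs, at 4.80. Gcm1 was not past the cutoffs, whereas the 6 markers past them had log2 differences from -4.70 to -3.80. In bulk RNA, fewer cells of a type and less RNA per cell cannot be told apart.

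Of the 66 members, 29 were well above background on all 4 arrays, 9 on some of them and 28 on none. That is 43.9% on all arrays, beside 72.4% of all genes named on the array. The arrays differed little in this count, at 35 and 31 members with CD and 34 on each HFD array. Detection followed the classes of keratins. The 4 simple epithelial keratins, the 3 basal layer keratins and the 4 stress-inducible keratins were all well above background on every array. Of the 12 suprabasal, palmoplantar and mucosal keratins 5 reached it on every array, and of the 15 hair and nail keratins also 5. None of the 9 keratins of the inner root sheath and companion layer did so, nor did the corneal keratin Krt12, whose level lay between -7.13 and -6.27. Of the 14 Sprr genes 6 were well above background on every array, 7 on none, and Sprr2f on the HFD arrays only. Beside Sprr2f, the members well above background on some arrays were Krt1, Krt4, Krt13, Krt25, Krt33b, Krt36, Krt75 and Krt88, of which Krt25 was so on CD replicate 2 and Krt88 on HFD replicate 2. The 28 members that were so on none had processed intensities from 2.99 to 16.5, the highest being Sprr4 on CD replicate 2.

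**Figure D1:**
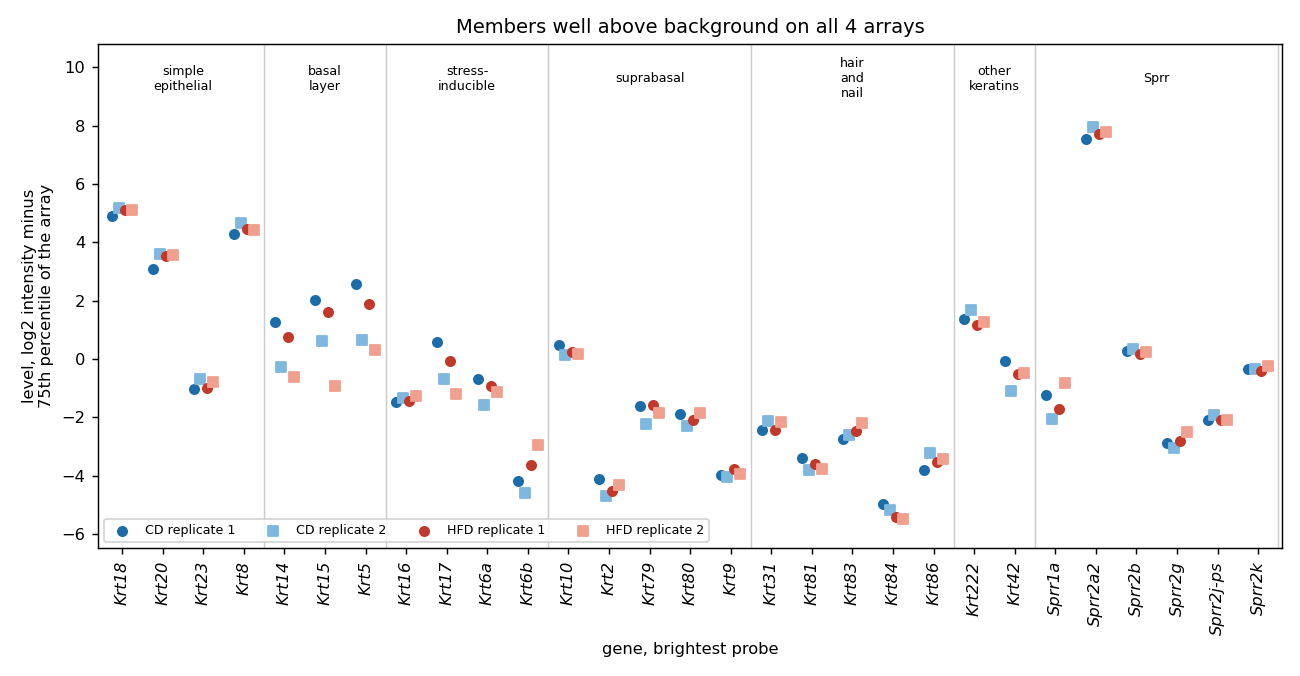
Level (log2 intensity minus the 75th percentile of the array) on each of the 4 arrays for the 29 members that were well above background on all of them, with 1 point for each array and the genes ordered by class. Krt5, Krt14, Krt15 and Krt17 are spread between the arrays of each group, with replicate 1 above replicate 2 in both, while the arrays of Krt8 and Krt18 lie close together.

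The liver's own keratin pair had overlapping levels with both diets. Krt8, the type II partner, had levels of 4.28 and 4.67 with CD and 4.44 and 4.42 with HFD. Both HFD arrays lay between the CD arrays, and the difference was -0.05 on the log2 scale (SE 0.20, adjusted p = 1.00 in limma). Krt18, the type I partner, had levels of 4.90 and 5.16 with CD and 5.11 and 5.10 with HFD. The groups again overlapped, with a difference of 0.07 (SE 0.18, adjusted p = 1.00 in limma). Krt20, a type I keratin of gut and urinary epithelium, had levels of 3.07 and 3.61 with CD and 3.52 and 3.57 with HFD, and CD replicate 1 was the low array. Krt23, a further type I keratin, had levels of -1.05 and -0.68 with CD and -0.99 and -0.79 with HFD, with overlapping groups. The other simple epithelial keratins, Krt7 and Krt19, which mark bile ducts and related ducts, are not members. Krt7 had levels of -0.13, -0.35, -0.31 and -0.39 over CD replicates 1 and 2 and HFD replicates 1 and 2, and Krt19 had levels of 2.15, 1.18, 1.62 and 1.67 in the same order.

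The basal layer keratins of stratified epithelia were well above background in these livers, and differed between the arrays of each group by more than between the diets. Krt5, the type II keratin of basal cells, had levels of 2.57 and 0.66 with CD and 1.88 and 0.29 with HFD. Krt14, its type I partner, had levels of 1.26 and -0.27 with CD and 0.75 and -0.62 with HFD. Krt15, a type I keratin of basal cells and the hair follicle, had levels of 2.00 and 0.60 with CD and 1.61 and -0.94 with HFD. In all these genes the replicate 1 array of each group was high and the replicate 2 array low, so that the groups overlapped throughout. The promoters of Krt5 and Krt14, from 250 bases before to 50 after the start of the gene in RefSeq (GRCm38.p6), are shown because these partners moved together over the arrays. Krt5 lies at chr15:101712856-101713155 on the minus strand and Krt14 at chr11:100205981-100206280 on the minus strand, each printed 5′ to 3′ with no capitals, since neither window holds a match to the TATA box, AP-1 or AP-2 letters that are spelled out for the Sprr genes and were searched on both strands.
Krt5: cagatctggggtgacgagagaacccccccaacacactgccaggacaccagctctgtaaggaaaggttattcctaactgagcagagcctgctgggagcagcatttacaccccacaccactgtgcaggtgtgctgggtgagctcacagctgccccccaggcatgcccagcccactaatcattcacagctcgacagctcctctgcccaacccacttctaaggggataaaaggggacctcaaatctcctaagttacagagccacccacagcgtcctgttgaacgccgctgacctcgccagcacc
Krt14: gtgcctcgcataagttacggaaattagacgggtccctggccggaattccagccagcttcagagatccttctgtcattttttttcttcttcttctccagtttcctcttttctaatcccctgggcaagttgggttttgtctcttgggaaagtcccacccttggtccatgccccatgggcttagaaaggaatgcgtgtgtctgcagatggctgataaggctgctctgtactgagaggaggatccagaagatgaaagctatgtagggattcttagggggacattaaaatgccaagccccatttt

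The log2 difference between the diets (HFD minus CD) was -0.53 for Krt5, with an SE of 0.85. For Krt14 it was -0.43, with an SE of 0.71. For Krt15 it was -0.96, with an SE of 0.99, and the adjusted p of all 3 genes was 1.00 in limma. The Krt15 difference ran from -2.24 without HFD replicate 1, which was past the cutoffs, to 0.31 without HFD replicate 2. Leaving out an array leaves 1 array in its group, which is then assumed to vary like the other group. Krt17, a type I keratin induced by stress and present in skin appendages, followed the same order of arrays, with levels of 0.58 and -0.69 with CD and -0.07 and -1.21 with HFD. Its difference between the diets was -0.59 (SE 0.59, adjusted p = 1.00 in limma). Krt1, the type II keratin that appears above the basal layer, had levels of -3.72 and -6.17 with CD and -4.65 and -5.69 with HFD, and was well above background on the replicate 1 arrays only. Krt10, its type I partner, did not share this spread, with levels of 0.48 and 0.13 with CD and 0.23 and 0.17 with HFD.

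**Figure D2:**
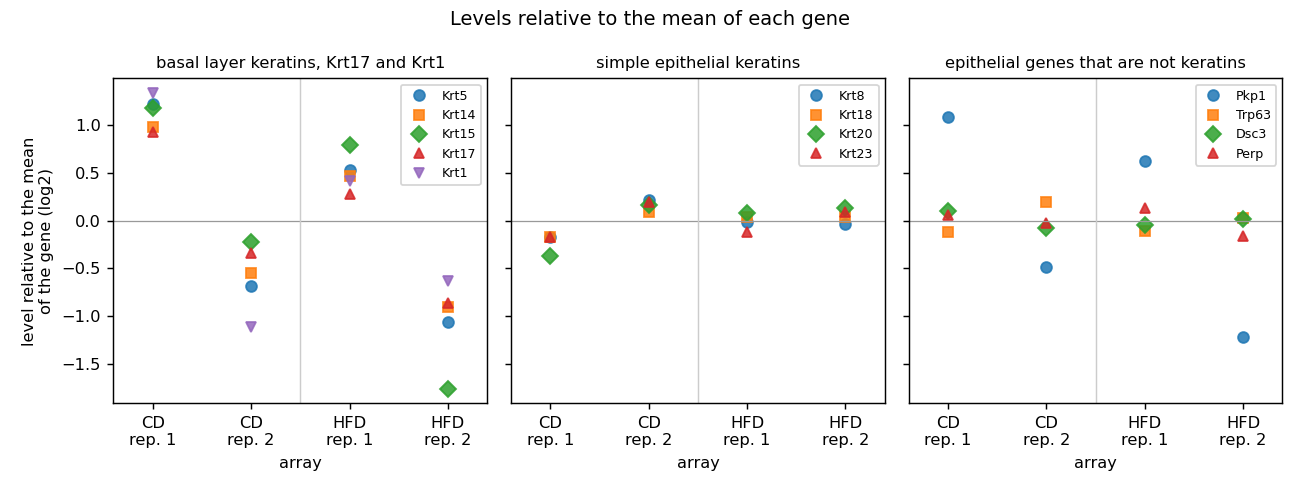
Level of each gene on each array relative to the mean of that gene over the 4 arrays (log2), for the basal layer keratins with Krt17 and Krt1 (left), the simple epithelial keratins (middle) and epithelial genes that are not keratins (right). Krt5 ranges from 1.22 on CD replicate 1 to -1.06 on HFD replicate 2 and Pkp1 has the same order of arrays, whereas Krt8 ranges from -0.17 to 0.22 and Trp63, Dsc3 and Perp also stay near 0.

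Differences of at least 2-fold between the arrays of each group, in both groups, were found for 5 of the 38 members tested, Krt5, Krt14, Krt15, Krt17 and Krt1, and for 0.981% of all genes tested. In each of them replicate 1 was above replicate 2 in both groups. The count was 3 with normexp background correction. Filtering on the coefficient of variation of the linear signal left 1, because that filter removed Krt5, Krt14, Krt15 and Krt17. The labels do not tie replicate numbers to a shared litter or day. Krt13, a type I keratin of the oesophagus and oral mucosa, also had its lowest level on HFD replicate 2, with levels of -3.57 and -4.48 with CD and -3.77 and -6.78 with HFD. It was not well above background on that array, and its other probe gave -4.75, -5.53, -4.97 and -7.85 over the same arrays. Krt4, the type II partner of Krt13, was well above background on CD replicate 1 only. Krt75, the type II keratin of the companion layer around the hair shaft, was instead low on CD replicate 2 alone, with levels of -3.83 and -6.29 with CD and -4.64 and -4.12 with HFD.

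**Figure D3:**
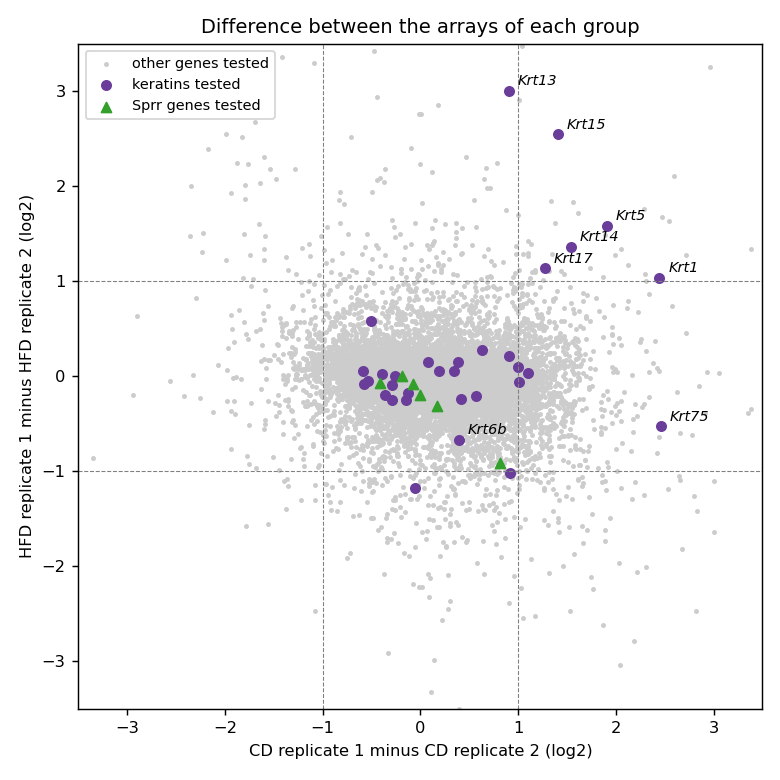
Difference between the CD arrays (horizontal axis) and between the HFD arrays (vertical axis) on the log2 scale, with grey points for the other genes tested, filled circles for keratins and triangles for Sprr genes, and dashed lines at 2-fold. Krt5, Krt14, Krt15, Krt17 and Krt1 lie beyond both lines in the upper right corner, most members lie near the centre, and 24 genes fall outside the axes.

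Few of the desmosome, plakin and cornified envelope genes had this spread. At least 2-fold between the arrays of both groups was reached by 1 of 17 desmosome and plakin genes tested, Pkp1, and by 1 of 12 genes of the cornified envelope and its enzymes, Asprv1, beside the 0.981% of all genes. Pkp1, a plakophilin that links desmosomes to keratin filaments, had levels of -1.49 and -3.05 with CD and -1.95 and -3.79 with HFD. Asprv1, a protease of the upper epidermis, had levels of -3.35 and -4.79 with CD and -3.89 and -5.00 with HFD. In both, as in Krt5, replicate 1 was above replicate 2 in each group. The plakin family genes Evpl and Eppk1 were spread in the CD group only, by 1.66 and 1.59 on the log2 scale between its arrays and by 0.17 and 0.19 between the HFD arrays. Trp63, the regulator of stratified epithelia, did not share the spread, with levels of 1.76 and 2.08 with CD and 1.78 and 1.92 with HFD. The desmosomal genes Perp and Dsc3 likewise differed between the arrays of a group by at most 0.29 and 0.18 on the log2 scale. Of 11 markers of epidermis and amnion, 10 reached signal above background on every array and Dsg3 on 3 of them. Their summed level was 4.34 and 3.83 with CD and 4.09 and 4.07 with HFD, and 0 were past the cutoffs in limma (0 also had an unadjusted p under 0.05). Among these markers 2, Wnt6 and Ly6d, were at least 2-fold apart between the arrays of both groups. Wnt6 had log2 differences of replicate 1 minus replicate 2 of 1.32 with CD and 1.11 with HFD. Replicate 1 was thus above replicate 2 in each group, as in Krt5, but the highest array was HFD replicate 1 and the lowest CD replicate 2. For Ly6d they were 1.48 with CD and -3.62 with HFD, in opposite directions. Over the 11 markers of epidermis and amnion, the median absolute log2 difference was 1.27 between the CD arrays and 0.29 between the HFD arrays. Over all genes tested these medians were 0.32 and 0.10. Of the markers tested, 5 of 9 urogenital and 6 of 14 trophoblast genes were also at least 2-fold apart in both groups, in opposite directions. The part of any of these cells in the spread of Krt5 and Krt14 was not tested.

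Between the diets, 38 members passed the filters and were tested, 32 keratins and 6 Sprr genes, and 28 were left out because they fell under the 20th percentile of an array. At an unadjusted p under 0.05 and at least 2-fold, limma placed 1 member, Krt6b, higher with HFD, beside 0.283% of all genes tested. It placed 0 members lower, beside 0.583% of all genes, and Krt6b was the only member with an unadjusted p under 0.05 there. After Benjamini-Hochberg adjustment over all probes tested limma called 0 members, and the methods' t-test called 0 at the same unadjusted cutoffs. With 2 arrays against 2, an exact two-sided permutation test of a single value cannot give a p below 0.333. The median log2 difference was -0.02 over the keratins tested and 0.00 over the Sprr genes tested, beside 0.04 over all genes tested. Both HFD arrays lay above both CD arrays for 5 members (Krt6b, Krt36, Krt83, Krt9 and Sprr2g), beside 22.9% of all genes. They lay below both CD arrays for 3 members (Krt84, Krt222 and Sprr2b), beside 10.2% of all genes.

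Krt6b, a type II keratin of wounded skin and oral epithelium, had levels of -4.21 and -4.60 with CD and -3.63 and -2.97 with HFD, all well above background. The means were -4.40 ± 0.28 with CD and -3.30 ± 0.47 with HFD (SD, n = 2). Both HFD arrays were above both CD arrays, and the difference was 1.10 on the log2 scale (SE 0.30), with an unadjusted p of 0.0185 and an adjusted p of 1.00 in limma. It was no longer past the cutoffs without CD replicate 2, at 0.91 with an unadjusted p of 0.0981. Nor was it so without HFD replicate 2, at 0.77 with an unadjusted p of 0.103, or with normexp background correction, at 0.47. The related Krt6a had levels of -0.68 and -1.58 with CD and -0.92 and -1.13 with HFD, and its groups overlapped (difference 0.10, SE 0.35). Krt16, the type I partner of the Krt6 proteins, had levels of -1.47 and -1.34 with CD and -1.45 and -1.27 with HFD, a difference of 0.05 (SE 0.17), and its other probe gave -0.07. Krt6a and Krt6b are close copies, and how far a probe of one also binds the transcript of the other was not tested.

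The remaining keratins that were well above background on all arrays differed little. Among suprabasal and palmoplantar keratins the differences between the diets were -0.01 for Krt2, 0.15 for Krt9, 0.20 for Krt79 and 0.11 for Krt80. Among the hair keratins they ran from -0.37 for Krt84 to 0.35 for Krt83. Krt84 had levels of -4.99 and -5.18 with CD and -5.43 and -5.48 with HFD. Krt83 had levels of -2.76 and -2.61 with CD and -2.46 and -2.21 with HFD. Neither passed the cutoffs, although the groups did not overlap. Krt31, Krt81 and Krt86, further hair keratins, differed by -0.02, -0.09 and 0.04. Krt222, a keratin-like gene, had levels of 1.38 and 1.66 with CD and 1.17 and 1.26 with HFD, a difference of -0.30 (SE 0.19, adjusted p = 1.00 in limma). Krt42, a type I keratin, had a difference of 0.08 and was lowest on CD replicate 2, at -1.09. Krt36, a hair keratin near the background, had levels of -5.62 and -6.72 with CD and -5.23 and -5.27 with HFD, a difference of 0.93 (SE 0.40, adjusted p = 1.00 in limma). Without CD replicate 1, Krt36 and Krt75 also passed the cutoffs.

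Sprr2f had both HFD arrays well above background and neither CD array. It is known as an estrogen-induced gene of the uterine epithelium. Its processed intensity was 11.2 and 3.5 with CD and 34.7 and 35.9 with HFD, where the lowest intensity well above background was 14.9 to 17.5 on the arrays. As levels these were -6.58 and -7.65 with CD and -4.80 and -4.66 with HFD. Both HFD arrays stood above both CD arrays. As neither CD array was well above background, each was given its lowest level well above background where that was higher. On that reading Sprr2f was 2.09-fold higher with HFD. This is not a strict lower bound, as spots above that level can lack the flag. Krt4 on HFD replicate 1 lacked it at an intensity of 18.4, where the lowest flagged intensity was 16.6. Sprr2f had no p in the main comparison because, with the filter as applied here, it was under the 20th percentile on a CD array. The authors' deposited table kept it, and the study lists it among its upregulated genes at a log2 fold change of 2.38. A filter on signal well above background would admit it through the HFD arrays alone, so no p is given. The 2.09-fold value ranged from 1.78-fold to 2.45-fold when each array was left out. Normexp background correction, which compresses dim signals, reduced the measured log2 difference from 2.38 to 0.37.

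The promoters of Sprr2f and of Sprr2b, on the same chromosome, are shown because the first was well above background with HFD only and the second on all arrays. Both lie on the plus strand in RefSeq (GRCm38.p6), Sprr2f at chr3:92364937-92365236 and Sprr2b at chr3:92316455-92316754, printed 5′ to 3′ from 250 bases before the start to 50 after it. Capitals mark matches to the TATA box, spelled TATAAA, and to the motif of the AP-1 factors, which was searched as TGANTCA, both on either strand.
Sprr2f: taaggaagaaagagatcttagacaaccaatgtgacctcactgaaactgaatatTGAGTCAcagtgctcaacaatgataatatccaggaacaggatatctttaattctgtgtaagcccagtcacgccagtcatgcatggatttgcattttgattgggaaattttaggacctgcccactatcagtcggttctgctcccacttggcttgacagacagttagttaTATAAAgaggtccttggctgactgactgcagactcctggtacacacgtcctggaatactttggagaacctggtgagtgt
Sprr2b: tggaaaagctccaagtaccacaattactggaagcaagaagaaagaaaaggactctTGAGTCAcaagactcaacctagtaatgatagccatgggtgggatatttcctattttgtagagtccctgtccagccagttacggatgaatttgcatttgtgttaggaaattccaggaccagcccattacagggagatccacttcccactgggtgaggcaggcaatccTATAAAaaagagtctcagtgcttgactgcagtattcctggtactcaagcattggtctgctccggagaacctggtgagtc

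Both hold a TATA box at position -29 from the start. The AP-1 match begins at position -197 in Sprr2f and at -195 in Sprr2b. A global alignment of the windows had 65.7% identical positions, and Sprr2e, Sprr2i and Sprr2d were closer to Sprr2f at 75.8%, 75% and 73.2%. These 3 genes had no array with signal well above background, with processed intensities from 2.99 to 4.10, so that the same matches were found in Sprr genes with and without signal. Of the 12 Sprr genes with a RefSeq promoter, 9 held the AP-1 letters and 10 the TATA box. Of the 35 keratins with one, 1 held the AP-1 letters and 19 the TATA box. Over these 47 members, 21.3% held the AP-1 letters and 61.7% the TATA box, against 7.81% and 13.6% of all 32851 promoters of the same length. The AP-2 motif, searched as GCCNNNGGC on both strands, was in 12.8% of the members and 16.6% of all promoters. A match is a run of letters and not evidence of binding.

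**Figure D4:**
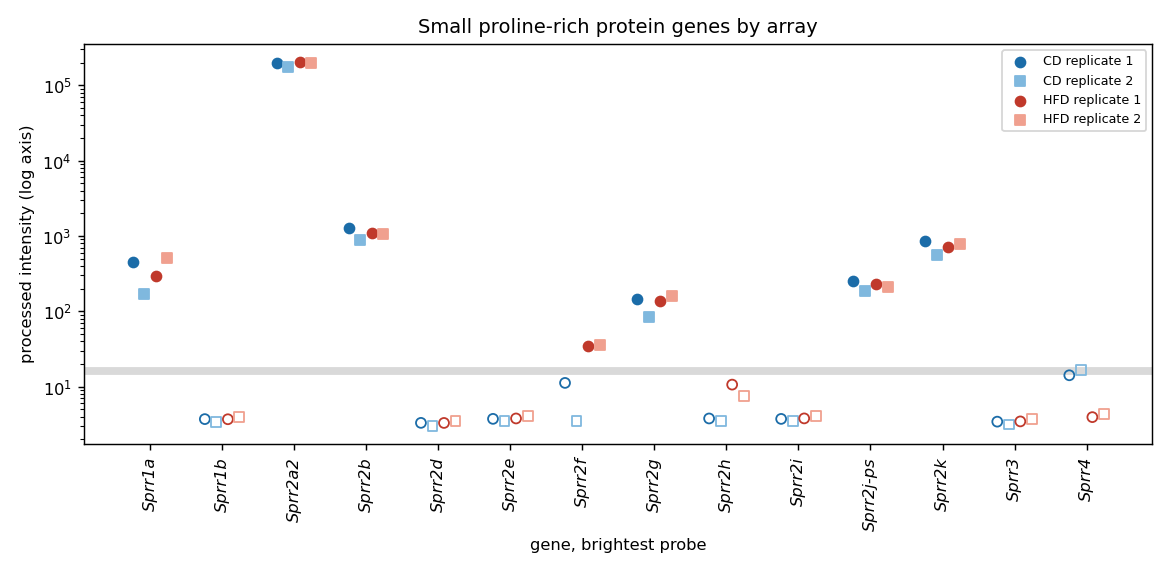
Processed intensity (log axis) of the 14 Sprr genes on each array, with filled symbols for spots well above background and open symbols for the others, and a grey band for the range of the lowest intensity well above background on the arrays, 14.9 to 17.5. Sprr2f is filled on the HFD arrays only, 7 genes are open on every array, and the other 6 are filled on every array.

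None of the 6 Sprr genes tested passed the cutoffs in limma, and 0 of them had an unadjusted p under 0.05. Sprr2a2 had levels of 7.54 and 7.96 with CD and 7.71 and 7.78 with HFD, a difference of 0.00 (SE 0.21). A second probe of this gene gave -0.46, -0.64, -0.37 and -0.74 over CD replicates 1 and 2 and HFD replicates 1 and 2, which is also a difference of 0.00, and the remaining probe had no signal well above background. Sprr2a1, Sprr2a2 and Sprr2a3 are near-identical copies that these probes cannot be taken to separate. Sprr1a, an early marker of cornification and of stressed cells, had levels of -1.23 and -2.05 with CD and -1.73 and -0.82 with HFD, a difference of 0.37 (SE 0.44, adjusted p = 1.00 in limma). Sprr2g, Sprr2k, Sprr2b and Sprr2j-ps, all of the Sprr2 group, had differences of 0.31, 0.01, -0.09 and -0.08. The groups of Sprr2g did not overlap, with levels of -2.89 and -3.05 with CD and -2.81 and -2.50 with HFD. Sprr1b and Sprr3, structural proteins of the cornified envelope, had no array with signal well above background, and nor had Sprr2h and Sprr4. Sprr2h had processed intensities of 3.78 and 3.54 with CD and 10.7 and 7.5 with HFD. Sprr4 had processed intensities of 14.2 and 16.5 with CD and 3.94 and 4.29 with HFD. As no spot of either gene was flagged well above background in either group, no fold is given.

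The partners of keratin filaments and of the cornified envelope were also followed. Of 17 desmosome and plakin genes tested and 12 genes of the cornified envelope and its enzymes tested, 0 passed the cutoffs in either direction in limma, with 1 gene at an unadjusted p under 0.05, Pkp3. Pkp3, a plakophilin of simple and stratified epithelia, had levels of -2.996 and -3.17 with CD and -3.76 and -3.79 with HFD, a difference of -0.69 (SE 0.17) with an unadjusted p of 0.0115 in limma. The median log2 difference was -0.06 over the desmosome and plakin genes and -0.01 over the cornified envelope genes. The desmosome and plakin genes with the brightest probes, Pkp4, Plec and Perp, differed by -0.03, -0.12 and -0.03. Those of the cornified envelope, Tgm3, Sbsn and Krtdap, differed by -0.25, -0.31 and 0.11, and those of the epithelial regulators and surface genes, Klf4, Trp63 and Cdh1, by 0.21, -0.08 and -0.14. Involucrin (Ivl), the classical substrate of transglutaminases, had no array with signal well above background, whereas loricrin (Lor), the main protein of the epidermal envelope, was so on all 4. Of the 15 epithelial regulators and surface genes, 1 was past the cutoffs and lower with HFD. This gene, Tfap2c, a transcription factor of trophoblast and epidermis, had levels of -2.70 and -2.74 with CD and -3.69 and -4.35 with HFD, a difference of -1.30 (SE 0.27) with an unadjusted p of 0.00670 and an adjusted p of 1.00 in limma. The trophoblast markers given above were also lower with HFD. Of 9 markers of urogenital epithelium 1, Cdh16, was past the cutoffs and higher with HFD, and their summed level was 1.93 and 0.90 with CD and 1.41 and 2.47 with HFD, so that the groups overlapped. Of 5 markers of lung epithelium, 3 were past the cutoffs and lower with HFD, with log2 differences of -2.54 for Sftpc, -2.49 for Nkx2-1 and -1.06 for Sftpb. Over all genes tested, 0.583% were past the cutoffs and lower. Nkx2-1 and Sftpb had neither HFD array well above background. With the reading used for Sprr2f, applied to the HFD arrays, they were 2.69-fold and 1.44-fold lower. Sftpd and Scgb1a1 were instead higher on both HFD arrays than on either CD array, by 1.14 and 0.43, and not past the cutoffs. The summed level of the list was -0.42 and 0.34 with CD and -0.998 and 0.75 with HFD. Of 10 markers of stomach and gut epithelium, 1 was past the cutoffs, Tff2, with a log2 difference of -1.10, and the summed level was 3.65 and 3.56 with CD and 3.59 and 3.95 with HFD. Of 7 mesothelium markers 0 were past the cutoffs in limma (0 also had an unadjusted p under 0.05). The part of any of these cells in the Tfap2c and Sprr2f differences was not tested.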

How the data were processed

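Cy3-labeled cRNA from total liver RNA was hybridised to Agilent mouse arrays, and per the labels the images were read with Agilent Feature Extraction 11.0.1.1. The authors deposited for each spot a processed intensity from which background and spatial trend had been removed, without any scaling from array to array. Flags, scores of 0 or 1 deposited as the image analysis gave them, mark outliers, saturation and spots well above background. The normalized signal that the authors deposited for 41471 probes equals the intensity divided by 1 constant per array.

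Spots without an outlier flag were averaged per probe as log2 intensity, and from each array its 75th percentile over probes that are not controls was subtracted. Following the methods, probes were left out that fell under the 20th percentile of at least 1 array (14980 probes), with all spots flagged (9) or with a coefficient of variation of the log2 value over 50% in both groups (2). The authors' deposited table holds Sprr2f, which the percentile filter removed here. The remaining 41614 probes, covering 18344 genes by the brightest probe, were compared with limma 3.58.1 (lmFit and eBayes, HFD minus CD, no covariates) in R 4.3.3. Cutoffs were an unadjusted p under 0.05 and 2-fold, and adjusted p-values are Benjamini-Hochberg over all probes tested. Transcripts were named through RefSeq genes of GRCm38.p6, which named 32994 of 56605 probes, and no probe coordinates are given because the array was designed on another build. With 2 arrays a group, the number of arrays limits the precision.

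The genes named are the members well above background on all arrays, past the cutoffs or without overlap at 2-fold, the brightest of each class, and pairs chosen by role. For the partner lists they are the genes past the cutoffs and the 3 brightest of each. All other genes were named after their values were seen. The members, the gene lists and these choices were made with earlier results of these data known. Flg, Prl2c2 and Muc16 of the lists had no probe matched. The alternatives were quantile normalization, normexp (offset 50, on median brightness), a floor of 5 on the signal, other filters, the deposited table, the mean over probes, the methods' t-test, the replicate block and leaving out each array. The replicate numbers were not taken as pairs in the main comparison. The correlation of same-numbered deviations was -0.11 over the probes tested, a single value that cannot show whether same-numbered arrays shared a litter or day.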

Additional observations from a re-analysis of the deposited data

How the results depend on the processing

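The number of members past the cutoffs and higher with HFD, 1 as reported, was 0 with normexp background correction and with the methods' t-test, 2 with the deposited table or a filter on signal well above background (Sprr2f and Krt6b), and 3 with no filter on dim probes (Sprr2f, Sprr2h and Krt6b). Sprr2f enters these counts with neither CD array well above background, and Sprr2h with no array so. This number ranged from 0 to 3 when each array was left out, which leaves 1 array in a group that is assumed to vary like the other group. The number lower with HFD, 0 as reported, was 1 with no filter on dim probes (Sprr4, with no array flagged well above background) and 0 to 2 when each array was left out (Krt15 and Krt13 without HFD replicate 1). With the replicate block it was 1 (Krt13). With a crossed pairing of the replicates, chosen after seeing the data, 1 member was called higher and 0 lower. The median over the Sprr genes tested ran from -0.082 to 0.069 when each array was left out. The count of members at least 2-fold apart between the arrays of each group, 5 as reported, was 3 with normexp and 1 with the coefficient of variation taken on the linear signal, in alternatives chosen after seeing the data. Of 450 values of the 33 named members under the alternatives, 442 neither changed side of the cutoffs nor moved beyond the replicate spread where that was the measure. Sprr2f had no side in the main comparison and was judged by its replicate spread. Its values past the cutoffs, with the deposited table, the filter on signal well above background and no filter on dim probes, are among the 442. Of members tested in the main comparison, 2 values came past the cutoffs (Krt15 and Krt75) and 4 fell short of them (Krt6b). The other 2 moved on the same side or untested (Krt84 to -0.13 and Sprr2f to 0.37, both with normexp). In all, 40 values that were not past the cutoffs changed sign, among them Krt15 without HFD replicate 2.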
